A study of Mus musculus with 8 samples.

Results

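The T cell receptor complex and its first signalling steps were described by 10 genes, Cd3d, Cd3e, Cd3g, Cd247, Cd8a, Cd8b1, Lck, Zap70, Lat and Cd5, chosen by name for their place in this machinery, with earlier results of these data known. All 10 were among the 41730 rows of the count table and all 10 were among the 13290 genes that passed the filter on low counts. RNA was sequenced from mouse CD8+ T cells carrying OT-I, a transgenic T cell receptor that recognises the ovalbumin peptide SIINFEKL. The T cells had been cultured with bone marrow-derived dendritic cells that lacked the liver X receptors (LXR-/-) and had been pulsed with that peptide, and were then purified by flow cytometric sorting. The tested cultures received 2 µM RGX-104, a synthetic LXR agonist, and the control cultures received its solvent DMSO, with 4 libraries in each group. Both groups share the OT-I receptor, the peptide and the receptor-deficient dendritic cells, and the labels give neither the age nor the sex of the mice. Nothing in the labels says that the libraries of a group came from separate animals or cultures, so the p-values given here refer to spread among libraries alone, and that spread may be technical.

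The alpha and beta chains of the receptor bind peptide on major histocompatibility complex molecules but have almost no signalling tail. Signalling passes through the CD3 gamma, delta and epsilon chains and the zeta chain encoded by Cd247, whose tails carry tyrosine activation motifs. CD8 binds class I molecules and brings the kinase Lck to the complex, Lck phosphorylates these motifs, ZAP-70 docks on them, and ZAP-70 phosphorylates LAT, a membrane scaffold on which the downstream enzymes assemble. CD5 is a surface receptor that dampens this signalling in T cells.

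Transcripts of this machinery changed by small amounts and in both directions with RGX-104. Cd247 fell by 11.9% and Cd3e fell by 9.33%. Cd8a fell by 7.73% and Cd8b1 fell by 8.13%. Lck rose by 7.03% and Lat by 6.70%, and Cd3d, Cd3g, Zap70 and Cd5 did not pass the test (edgeR quasi-likelihood test, Benjamini-Hochberg adjusted p under 0.05 over all genes tested). Thus 4 of 10 members were lower, where 4.13% of all tested genes were, and 2 were higher, where 4.82% were. In either direction 6 of 10 members passed, against 8.95% of all tested genes. Genes with high counts, as the members have, can pass at smaller changes than genes with few counts. The members were not set against genes of like abundance. Each called member changed by less than the median absolute log2 fold change of all called genes, 0.19. Library totals ranged from 30642316 to 35244624 counts with RGX-104 and from 33942140 to 37714355 in controls. Abca1, an LXR target gene that encodes a cholesterol transporter, was at 118, 128, 132 and 121 CPM, the count scaled to library size, in the RGX-104 libraries, against 1.75, 2.09, 1.38 and 1.64 CPM in the control libraries.

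The members lie in 7 places of the mouse genome (GRCm38). Cd3g (chr9:44969572-44980431), Cd3d (chr9:44981769-44987052) and Cd3e (chr9:44998735-45009663) are neighbours. Cd3g and Cd3d are read away from each other across 1337 bases, and Cd3d ends 11682 bases from Cd3e. Cd8b1 (chr6:71322788-71337492) and Cd8a (chr6:71373427-71379171) are 35934 bases apart. Zap70 (chr1:36761798-36782821) and Cd247 (chr1:165779952-165871153) are far apart on chromosome 1, and Lck (chr4:129548344-129573641), Lat (chr7:126363827-126369705) and Cd5 (chr19:10718107-10739026) are alone. The 2 nearest tested protein-coding genes on each side of the CD3 locus, Atp5l, Ube4a, Mpzl2 and Mpzl3, did not pass the test, with log2 fold changes of -0.12, -0.03, 0.04 and 0.01. Those beside the CD8 locus, Krcc1, Gm1070, Rmnd5a and Rnf103, did not pass either, at -0.01, -0.05, -0.04 and 0.05.

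Windows of 250 bases before an annotated start site are shown. They cover the 4 signalling chains, because Cd3e and Cd247 fell while Cd3d and Cd3g did not pass. Lat and the upstream start of Lck, the members that rose, are shown as well. The start sites do not all lie at the ends of the gene spans given above. The Cd247 window lies wholly within its span, and the Lat, Cd3e and Cd3d windows run partly into theirs. The sequences are from RefSeq (GRCm38.p6), 5′ to 3′ on the strand of the gene. They lie at chr9:44981536-44981785 (Cd3d, plus strand), chr9:44980432-44980681 (Cd3g, minus), chr9:45009612-45009861 (Cd3e, minus), chr1:165788431-165788680 (Cd247, plus), chr7:126369569-126369818 (Lat, minus) and chr4:129573642-129573891 (Lck, minus). Capitals mark matches, on either strand, to TGTGGT (a RUNX core), AGGAAG (an ETS core), CACCTG or CAGCTG (E-boxes) and CTTTGA (a TCF/LEF core).
Cd3d: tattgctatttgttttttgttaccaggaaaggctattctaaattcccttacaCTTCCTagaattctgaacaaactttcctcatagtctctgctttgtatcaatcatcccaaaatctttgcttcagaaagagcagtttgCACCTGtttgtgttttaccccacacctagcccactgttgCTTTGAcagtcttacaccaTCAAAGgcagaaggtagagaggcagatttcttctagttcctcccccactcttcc
Cd3g: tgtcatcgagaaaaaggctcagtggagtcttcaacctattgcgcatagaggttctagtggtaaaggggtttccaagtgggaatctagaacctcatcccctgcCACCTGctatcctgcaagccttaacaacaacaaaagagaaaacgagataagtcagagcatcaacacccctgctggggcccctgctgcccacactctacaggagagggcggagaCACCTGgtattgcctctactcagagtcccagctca
Cd3e: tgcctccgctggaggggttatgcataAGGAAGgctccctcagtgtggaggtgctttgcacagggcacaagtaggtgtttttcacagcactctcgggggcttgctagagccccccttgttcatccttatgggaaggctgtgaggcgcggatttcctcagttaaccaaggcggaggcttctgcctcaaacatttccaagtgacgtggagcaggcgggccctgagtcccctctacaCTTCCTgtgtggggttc
Cd247: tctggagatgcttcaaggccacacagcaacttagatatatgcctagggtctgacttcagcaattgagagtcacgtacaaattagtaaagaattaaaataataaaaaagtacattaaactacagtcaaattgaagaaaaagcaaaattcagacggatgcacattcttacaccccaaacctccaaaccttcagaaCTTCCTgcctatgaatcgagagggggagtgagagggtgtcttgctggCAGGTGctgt
Lat: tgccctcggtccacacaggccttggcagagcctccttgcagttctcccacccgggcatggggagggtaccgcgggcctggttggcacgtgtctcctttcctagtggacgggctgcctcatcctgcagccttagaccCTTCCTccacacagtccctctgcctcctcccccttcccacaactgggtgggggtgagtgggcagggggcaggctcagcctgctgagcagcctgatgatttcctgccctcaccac
Lck: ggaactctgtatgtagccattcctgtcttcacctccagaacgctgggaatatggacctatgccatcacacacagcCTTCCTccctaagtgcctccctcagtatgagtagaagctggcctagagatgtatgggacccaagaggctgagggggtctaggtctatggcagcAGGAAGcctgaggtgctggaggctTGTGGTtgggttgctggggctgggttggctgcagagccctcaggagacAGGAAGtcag

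Start-site windows were available for 9 of the 10 members, all but Cd8b1, with 12 windows in all because Lck and Zap70 have several starts. AGGAAG was in 9 of the 12 windows, against 29.5% of the 32851 windows of all genes, and CACCTG was in 7, against 17.2%. TGTGGT and CTTTGA were each in 2, against 14.0% and 13.8%, and CAGCTG was in 0, against 13.0%. The exact direct repeat of AGGTCA with 4 bases between was in 0 of the 12 windows and in 0.0152% of all windows. It is the perfect form of the DR4 element bound by LXR with its partner RXR, and looser forms were not searched. A match so rare could hardly be met in 12 windows, so no absence of LXR elements is read from this. The Cd3e window held 2 ETS matches and none of the other motifs, the Cd3g window 2 CACCTG matches, and the Lat window 1 ETS match. These are matches of letters in a short window and not measured binding sites. They did not divide the members by direction. An ETS match was in the windows of Cd3e and Cd247, which fell, and in those of Lat and Lck, which rose.

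Levels of different genes were compared per length, as CPM per kilobase of merged exons. The CD8 genes stood highest, with Cd8b1 at 289 ± 2.49 in RGX-104 libraries and 314 ± 7.69 in controls, and Cd8a at 258 ± 2.00 and 280 ± 5.78 (SD, n = 4 each). Lat followed at 244 ± 3.02 and 229 ± 4.91, then Cd3g at 221 ± 7.14 and 225 ± 9.12, Cd3e at 202 ± 7.62 and 222 ± 7.23, and Cd3d at 141 ± 4.35 and 142 ± 5.13. Of these, Lat, Cd3g and Cd3e overlapped in controls, where their libraries ranged over 224 to 236, 213 to 235 and 216 to 232. With RGX-104 the same 3 genes ranged over 241 to 248, 212 to 228 and 195 to 208 and did not overlap. Zap70 was at 90.9 ± 0.201 and 92.7 ± 0.919, and Cd5 at 71.3 ± 1.83 and 67.4 ± 0.252. Cd247 was at 43.0 ± 0.754 and 48.8 ± 0.982 over merged exons of 4558 bases. It was at 66.3 and 75.3 over its longest coding transcript of 2957 bases, so its place near Cd5 or below it depends on the length used. Lck was lowest, at 40.5 ± 0.463 and 37.9 ± 0.996. The table holds a second row for Lck with 4 to 17 counts per library, so its level is uncertain and is not read as low expression.

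**Figure D1:**
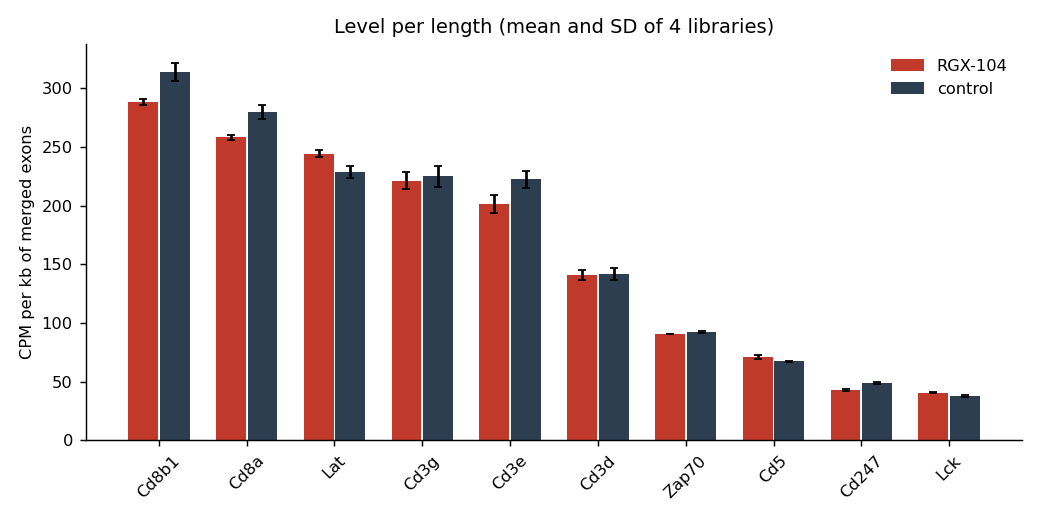
Level of each member per length (vertical axis, CPM per kilobase of merged exons) in RGX-104 and control libraries. Bars are means and error bars the SD of 4 libraries. Cd8b1 and Cd8a stand highest, at 289 and 258 with RGX-104, and Lck lowest, at 40.5.

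The CD3 and zeta chains divided into a pair that fell and a pair that did not pass. Cd247, which encodes the zeta chain with the most activation motifs of the complex, was at 198, 197, 191 and 199 CPM in RGX-104 libraries 1 to 4, against 224, 217, 222 and 227 CPM in control libraries 1 to 4. Every RGX-104 library lay below every control library. Its log2 fold change was -0.18 ± 0.03 (SE), with a 95% interval of -15.3% to -8.37% and an edgeR adjusted p of 4.34e-05. Cd247 overlaps the 3′ end of Pou2f1 and the noncoding gene Gm32999, and the counting rule for shared bases is not given in the sources used here. Neither neighbour passed, with Pou2f1 at 63.1 ± 2.15 CPM with RGX-104 and 58.5 ± 4.74 CPM in controls and Gm32999 at 1.401 ± 0.284 and 1.11 ± 0.390 CPM (SD, n = 4 each).

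Cd3e encodes the epsilon chain, which pairs with both gamma and delta. It was at 286, 304, 305 and 285 CPM in RGX-104 libraries, against 316, 318, 339 and 328 CPM in control libraries. The groups did not overlap, and RGX-104 libraries 2 and 3 were closer to the controls than 1 and 4. The log2 fold change was -0.14 ± 0.03 (SE; 95% interval -13.2% to -5.30%; edgeR adjusted p = 0.00295).

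Cd3d, encoding the delta chain, was at 224, 238, 229 and 222 CPM in RGX-104 libraries, against 222, 231, 241 and 225 CPM in control libraries. Cd3g, encoding the gamma chain, was at 225, 233, 231 and 217 CPM, against 218, 231, 240 and 232 CPM. In both genes the groups overlapped. The log2 fold changes were -0.01 ± 0.03 and -0.02 ± 0.03 (SE; edgeR adjusted p = 0.879 and 0.728). The 95% intervals ran from -4.97% to 3.68% for Cd3d and from -5.86% to 2.99% for Cd3g, so a fall as large as that estimated for Cd3e lay outside both. A numbered copy row of Trac, the alpha chain constant segment, was at 66.9, 70.1, 68.4 and 71.7 CPM with RGX-104 and 67.5, 69.3, 72.2 and 69.3 CPM in controls, and it did not pass either (edgeR adjusted p = 0.940).

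**Figure D2:**
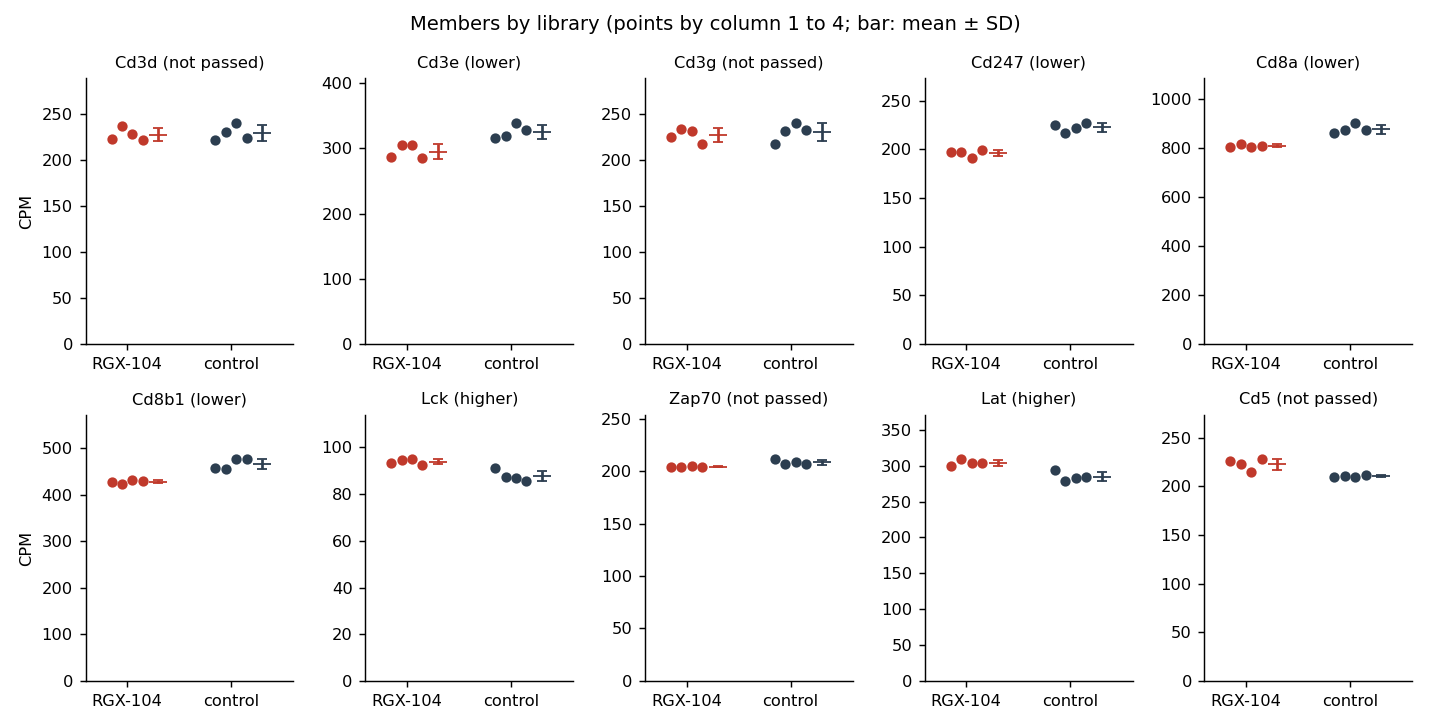
Each member in each library (vertical axes, CPM, from 0). Points run from library 1 to 4 in column order, and the bar beside them is the mean ± SD. Cd247 lies at 191 to 199 CPM with RGX-104 and at 217 to 227 CPM in controls, whereas the groups overlap for Cd3d and Cd3g.

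Both chains of the CD8 coreceptor fell to a like degree. Cd8a, the alpha chain that carries the Lck-binding tail, was at 805, 818, 805 and 809 CPM in RGX-104 libraries, against 861, 872, 903 and 872 CPM in control libraries. Cd8b1, the beta chain, was at 428, 423, 432 and 428 CPM, against 457, 455, 476 and 476 CPM. In both genes all 4 RGX-104 libraries lay below all 4 controls. The log2 fold changes were -0.12 ± 0.02 and -0.12 ± 0.03 (SE; edgeR adjusted p = 0.00273 and 0.00264), with 95% intervals of -10.9% to -4.40% and -11.5% to -4.64%. The spread among RGX-104 libraries was narrow, with a coefficient of variation of 0.774% for Cd8a, where counting error alone gives 0.616%. In controls it was 2.06%, where counting error gives 0.566%. In RNA from whole sorted samples, fewer cells with a transcript and less of it per cell cannot be told apart.

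The proximal kinases and the adaptor did not move together. Lck, the kinase that phosphorylates the activation motifs, was at 93.5, 94.7, 94.9 and 92.6 CPM in RGX-104 libraries, against 91.1, 87.2, 86.9 and 85.8 CPM in control libraries. The groups did not overlap, and control library 1 was closest to the RGX-104 libraries. Its log2 fold change was 0.10 ± 0.03 (SE; 95% interval 2.54% to 11.7%; edgeR adjusted p = 0.0395). Lat, the scaffold, was at 300, 309, 304 and 304 CPM, against 293, 279, 283 and 285 CPM, again with no overlap. Its log2 fold change was 0.09 ± 0.03 (SE; 95% interval 2.74% to 10.8%; edgeR adjusted p = 0.0254). Zap70, the kinase between them in the cascade, was at 204, 204, 205 and 204 CPM, against 211, 207, 208 and 206 CPM. Its 2 groups did not overlap, but the difference did not pass (log2 fold change -0.03 ± 0.03, SE; 95% interval -5.57% to 1.70%; edgeR adjusted p = 0.547). The pseudogene Gm18828 lies within the Zap70 gene. The count table has no row of that name, so whether Zap70 shares reads with it could not be checked.

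The calls of Lck and Lat were less steady than those of the 4 members that fell. Lck no longer passed without control library 2, 3 or 4 (edgeR adjusted p = 0.0722, 0.113 and 0.0884) or without RGX-104 library 1, 2, 3 or 4 (0.0724, 0.110, 0.120 and 0.0625), nor with DESeq2 (0.0533), no filter (0.0850) or 1 surrogate variable (0.122), and its adjusted p ranged from 0.0141 to 0.122 over the 18 alternatives tried. Lat no longer passed without control library 2 or 3 (0.0729 and 0.0820) or RGX-104 library 2, 3 or 4 (0.0987, 0.0746 and 0.0660), nor with no filter (0.0514), over a range of 0.0073 to 0.0987. Their log2 fold changes stayed between 0.08 and 0.12 for Lck and between 0.08 and 0.11 for Lat over the same alternatives. Cd247, Cd3e, Cd8a and Cd8b1 passed in all 18, with the highest adjusted p at 0.000623, 0.0252, 0.0244 and 0.0193.

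Cd5, the inhibitory receptor, was at 226, 223, 215 and 228 CPM in RGX-104 libraries, against 210, 211, 210 and 211 CPM in control libraries. All 4 RGX-104 libraries were above the controls, which spanned less than 2 CPM. The log2 fold change of 0.08 ± 0.03 (SE; 95% interval 1.83% to 10.1%) missed the threshold (edgeR adjusted p = 0.0592). Cd5 passed in 6 of the 18 alternatives, over which its adjusted p ranged from 0.0238 to 0.181. It passed without RGX-104 library 3, the lowest of its group (edgeR adjusted p = 0.0496), and with DESeq2 (0.0479). In edgeR it also passed with upper-quartile scaling (0.0241), library size only (0.0238) and a mean count of at least 50 (0.0351). The last was a replicate block by column number (0.0243). Counting all members, the CPM of the groups did not overlap in 8 of 10, against 14.5% of all tested genes, which include genes with far fewer counts.

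**Figure D3:**
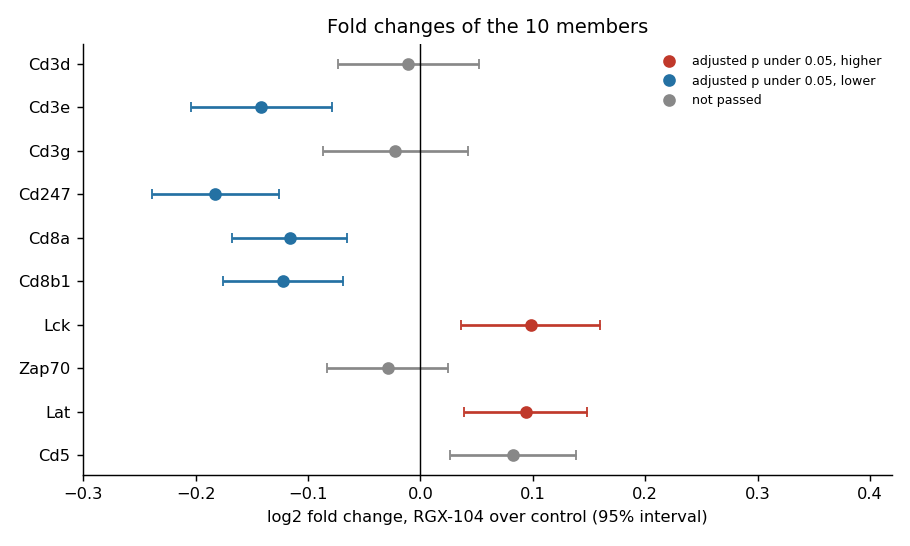
Log2 fold change of each member, RGX-104 over control (horizontal axis), with its 95% interval. Cd247 stands lowest at -0.18 and Lck highest at 0.10, and the intervals of Cd3d, Cd3g and Zap70 include 0.

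Ratios of counts between members of the same role were formed within each library, so that the scaling of libraries drops out. There were 10 such ratios, 6 among Cd3d, Cd3e, Cd3g and Cd247, 1 between the CD8 chains and 3 among Lck, Zap70 and Lat. They were added after the fold changes were seen, so their p-values are not independent of those. A two-sided exact permutation test of 4 libraries against 4 cannot go below p = 0.0286, which after adjustment over the 10 ratios became 0.0476. That adjusted value depends on how many ratios stood at the lowest p. Among them were Zap70 to Lck and Zap70 to Lat, from which no test is read below. The adjusted value is therefore not taken as passing the threshold. Cd3e and Cd247 had also already been seen to separate between groups in CPM.

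The epsilon chain fell relative to delta and gamma. Cd3e had 1.28, 1.28, 1.33 and 1.28 counts for each Cd3d count in RGX-104 libraries, against 1.42, 1.38, 1.41 and 1.46 in control libraries. For Cd3e to Cd3g the mean ratio was 1.30 ± 0.0212, against 1.41 ± 0.0311 (SD, n = 4 each). Neither ratio overlapped between groups, and both reached the smallest p of the exact permutation test (p = 0.0286, adjusted 0.0476).

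The zeta chain fell relative to the same pair. Cd247 to Cd3d was 0.883, 0.8285, 0.835 and 0.897 in RGX-104 libraries, against 1.01, 0.938, 0.921 and 1.01 in control libraries. Cd247 to Cd3g averaged 0.867 ± 0.0402, against 0.969 ± 0.0485 (SD, n = 4 each). Both again had the smallest possible exact permutation p of 0.0286. Cd3g to Cd3d was 0.994 ± 0.0173 and 1.00 ± 0.0219, and Cd247 to Cd3e was 0.666 ± 0.0346 and 0.685 ± 0.0235 in RGX-104 and control libraries. Those 2 ratios overlapped between groups (exact permutation p = 0.629 and 0.371).

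The CD8 chains kept their ratio within the spread of libraries, with 0.531, 0.517, 0.537 and 0.530 Cd8b1 counts for each Cd8a count with RGX-104, against 0.531, 0.521, 0.527 and 0.545 in controls (exact permutation p = 0.800). Lat to Lck was also alike, at 3.24 ± 0.0393 and 3.25 ± 0.0516 (SD, n = 4 each; exact permutation p = 0.8286). Zap70 to Lck was 2.18, 2.15, 2.16 and 2.20, against 2.32, 2.37, 2.40 and 2.41. Zap70 to Lat was 0.680, 0.660, 0.673 and 0.671, against 0.719, 0.742, 0.737 and 0.725. Neither overlapped. Since the groups had already been seen to separate in CPM, in opposite directions, for Zap70 and for its partners, this separation follows from those values and no test is read from these 2 ratios.

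**Figure D4:**
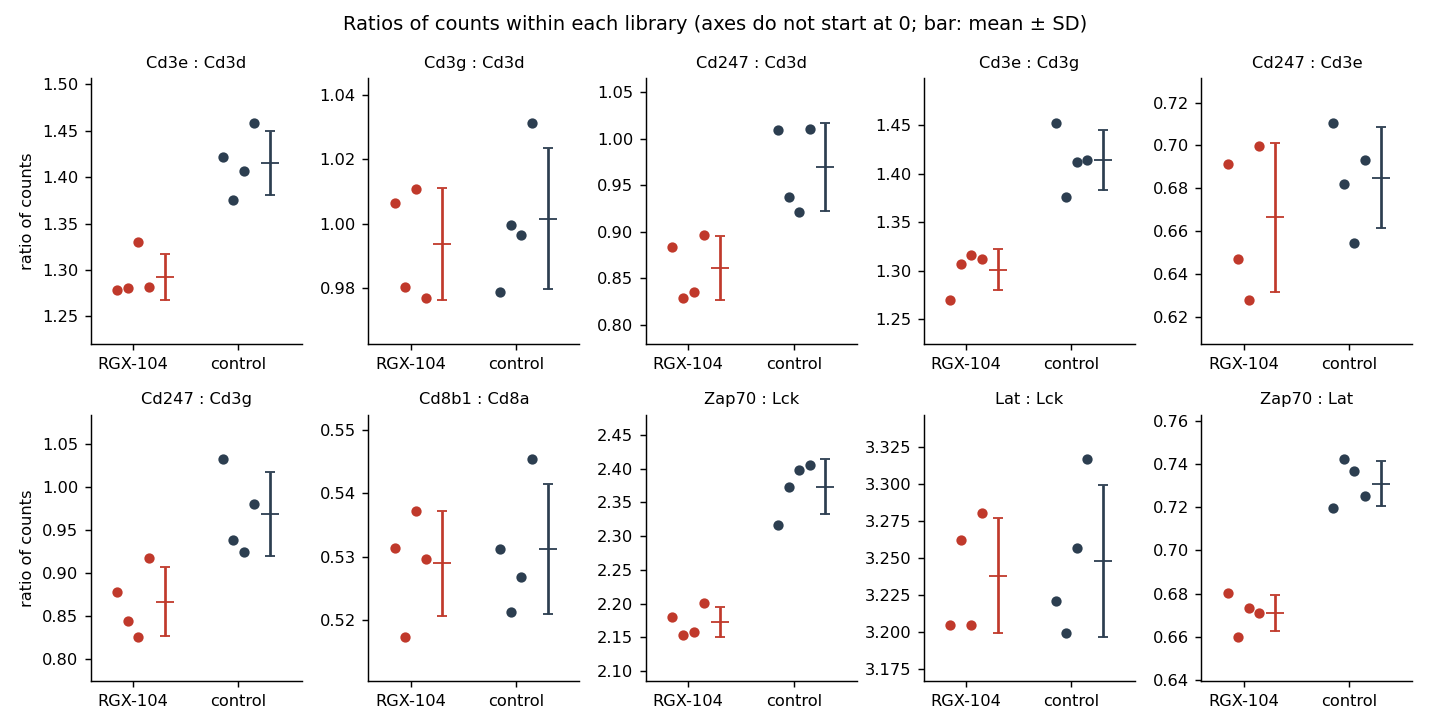
Ratio of counts between 2 members (vertical axes, which do not start at 0) in each library, with mean ± SD. Cd3e to Cd3d lies at 1.28 to 1.33 with RGX-104 and 1.38 to 1.46 in controls, whereas Cd3g to Cd3d and Cd8b1 to Cd8a overlap.

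Other genes of the pathway were described by 4 lists of textbook members. Among kinases and adaptors that act beside Lck and Lat, 5 of 23 tested were higher and 0 lower, where 4.82% of all tested genes were higher and 4.13% lower, so that a count of 0 lower among so few genes is near the background. The median log2 fold change was 0.05, against 0.00 over all tested genes. At an unadjusted p under 0.05 edgeR had 9 higher and 2 lower, and DESeq2 and limma-voom also called 0 lower. Tespa1, needed for thymocyte receptor signalling in mice, was at 30.6, 33.1, 34.4 and 30.2 CPM with RGX-104, against 25.9, 28.2, 28.0 and 23.7 CPM in controls (log2 fold change 0.28 ± 0.05, SE; edgeR adjusted p = 0.00171). The kinase gene Tec rose by 0.26 ± 0.06 and Skap1, an adaptor of integrin activation, by 0.14 ± 0.03 (edgeR adjusted p = 0.00798 and 0.0118). Grap2 and Lcp2, the adaptors GADS and SLP-76 that join LAT, rose by 0.16 ± 0.05 and 0.10 ± 0.03 (edgeR adjusted p = 0.0370 and 0.0279). Sh2d2a, an abundant gene of this list, did not pass, at 520 ± 14.4 and 546 ± 2.86 CPM in RGX-104 and control libraries (SD, n = 4 each). Its groups did not overlap, with RGX-104 lower (log2 fold change -0.07 ± 0.03, SE; edgeR adjusted p = 0.101). The Grap2 groups overlapped, and its call was lost in 8 of 18 alternatives, with DESeq2 (0.0608), without robust fitting (0.0515), without control library 1, 3 or 4 (0.0823, 0.143 and 0.0541) and without RGX-104 library 2, 3 or 4 (0.0759, 0.116 and 0.126). Lcp2 lost its call in 6, without control library 1, 2 or 3 (0.0593, 0.0780 and 0.0701) and without RGX-104 library 2, 3 or 4 (0.0811, 0.0854 and 0.0821). Skap1 lost its call without RGX-104 library 2 or 3 (0.0772 and 0.0521), and Tec with 1 surrogate variable (0.0517). Fewer of this list were called without RGX-104 library 2 or 3 (2 each) and without RGX-104 library 4 or control library 3 (3 each).

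Among phosphatases, ubiquitin ligases and other genes listed as restraining receptor signalling, 2 of 24 tested rose and 1 fell. This was close to the 4.82% higher and 4.13% lower of all tested genes, and the median log2 fold change was -0.00016. Ptpn7, a phosphatase of mitogen-activated kinases, averaged 249 ± 2.39 CPM with RGX-104 and 225 ± 4.32 CPM in controls (log2 fold change 0.15 ± 0.03, SE). Rasa2, which switches off Ras, was at 104 and 93.5 CPM (0.15 ± 0.03). Cblb, a ubiquitin ligase that limits activation, was at 396 and 429 CPM (-0.11 ± 0.03). Ptprc was counted on this list although the phosphatase it encodes, CD45, keeps Lck active. It did not pass at 1497 and 1428 CPM, nor did Ptpn6 at 479 and 475 CPM (edgeR adjusted p = 0.0866 and 0.858). Cblb did not pass without RGX-104 library 4 (edgeR adjusted p = 0.0524). Without control library 2 the list had 5 called genes.

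Of 17 tested costimulatory and accessory receptor genes 5 rose and 0 fell, where 4.82% of all tested genes were higher and 4.13% lower, and the median log2 fold change was 0.09. At an unadjusted p under 0.05 edgeR had 8 higher and still 0 lower, and DESeq2 and limma-voom called 0 lower as well. Icos, a costimulator of activated T cells, rose, at 10.3, 10.02, 10.1 and 10.9 CPM with RGX-104, against 8.55, 7.84, 8.28 and 7.82 CPM in controls (log2 fold change 0.35 ± 0.07, SE; edgeR adjusted p = 0.00104). Tnfrsf9, encoding the activation-induced receptor 4-1BB, was at 192 and 169 CPM (0.18 ± 0.03), and the tetraspanin gene Cd82 at 286 and 253 CPM (0.18 ± 0.03). Cd48 and Cd226 rose by 0.11 ± 0.03 and 0.14 ± 0.04 (edgeR adjusted p = 0.0171 and 0.0290). The Cd226 groups overlapped, and its call was lost in 6 of 18 alternatives, with DESeq2 (0.0520), with 1 surrogate variable (0.0530), without control library 1 or 3 (0.0701 and 0.0993) and without RGX-104 library 2 or 3 (0.131 and 0.0835). Cd48 lost its call without RGX-104 library 1 or 4 (0.0647 and 0.0756). Thy1 did not pass at 908 and 855 CPM, nor did Spn at 315 and 322 CPM. Cd2 was not tested, with at most 6 counts in any library and a numbered copy row, and its level is not read as low expression.

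Downstream of LAT, 3 of 31 tested genes of the calcium, Ras and NF-κB branches rose and 5 fell, where 4.82% of all tested genes were higher and 4.13% lower, and the median log2 fold change was -0.01. The AP-1 gene Jun was at 44.4, 42.1, 41.7 and 43.2 CPM with RGX-104, against 53.0, 53.9, 56.4 and 53.9 CPM in controls (log2 fold change -0.34 ± 0.04, SE; edgeR adjusted p = 1.76e-07). Fos, its partner, averaged 3.52 and 4.41 CPM (-0.33 ± 0.10, edgeR adjusted p = 0.0327). The Fos call was lost in 7 of 18 alternatives, with DESeq2 (0.0817), with 1 surrogate variable (0.0853), without control library 3 or 4 (0.0979 and 0.0607) and without RGX-104 library 1, 2 or 3 (0.0955, 0.0737 and 0.0647). Nfatc1, a calcium-controlled transcription factor, changed by -0.14 ± 0.03. Malt1, a protease of the NF-κB branch, rose by 0.14 ± 0.04 and Orai1, the calcium channel of T cells, by 0.13 ± 0.04. Malt1 lost its call with 1 surrogate variable (0.0870), without control library 1 (0.0558) and without RGX-104 library 2 or 3 (0.0581 and 0.0691), and Orai1 without control library 2 (0.0653) and RGX-104 library 1 or 4 (0.0563 and 0.0545). Nfatc3 did not pass at 225 and 235 CPM. This list had 4 called genes without RGX-104 library 1, 2 or 3 and 5 without control library 4.

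**Figure D5:**
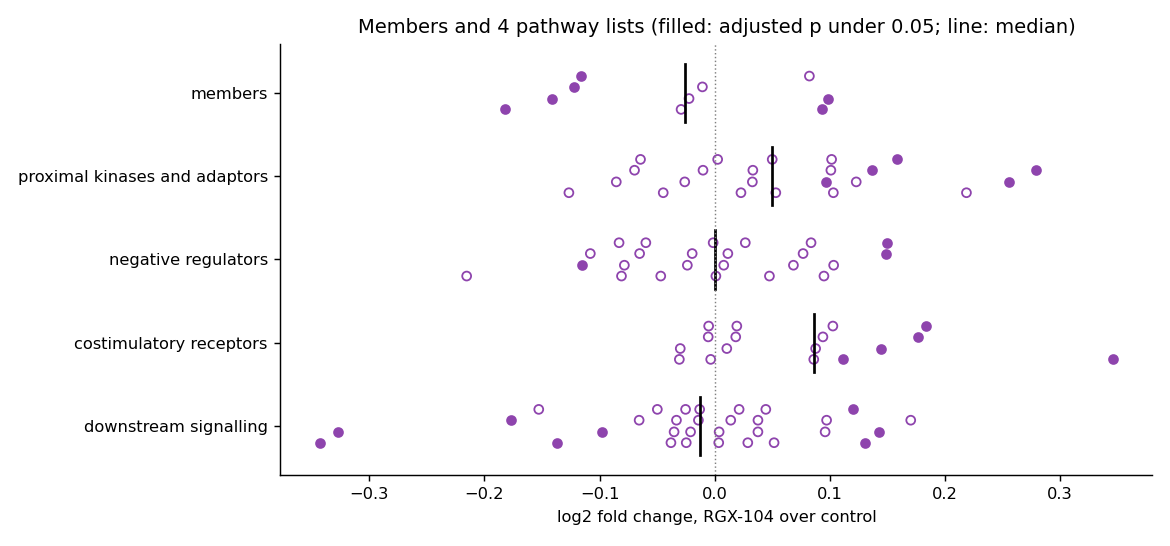
Log2 fold change, RGX-104 over control (horizontal axis), of the 10 members and of the tested genes of 4 pathway lists. Filled points have an adjusted p under 0.05 and lines are medians, which range from -0.03 for the members to 0.09 for costimulatory receptors.

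Markers were examined for other cells that the sort could hold. Cd4 had 3 to 14 counts per library, and the 6 markers of CD4 and regulatory T cells summed to 94.2 to 102 CPM with RGX-104 and 91.0 to 101 CPM in controls, mostly from Ikzf2 and Ctla4. The 16 dendritic and myeloid markers summed to 126 to 139 CPM with RGX-104 and 114 to 124 CPM in controls, mostly from Cst3, Batf3 and Cd74. All 8 of these markers that passed the filter had positive log2 fold changes, with a median of 0.34 and a highest of 1.24, and 2 passed the test. Those were Ccl22, at 4.83 CPM with RGX-104 and 2.05 CPM in controls, and Cd74, at 33.2 and 26.5 CPM. Zbtb46 was at 3.77 and 2.91 CPM. The other 8 were too low to test. Among them the defining myeloid genes Lyz2, Csf1r, Spi1 and Adgre1 had at most 6 counts in any library. NK cell markers summed to 52.7 to 60.1 CPM with RGX-104 and 54.2 to 58.9 CPM in controls, nearly all from Eomes, with Ncr1 at 0 counts throughout and Gzma at 4.21 and 7.07 CPM. The 5 B cell markers in the table summed to 4.37 to 4.70 and 3.96 to 5.45 CPM, with Ms4a1 at 0. Of 4 tested CD4 and regulatory T cell markers 1 was called higher and 1 lower, and of 3 tested NK cell markers 1 and 1. Over all tested genes 4.82% were higher and 4.13% lower. The abundant dendritic markers Cst3 and Batf3 differed little, at 48.8 and 39.1 CPM with RGX-104 and 48.1 and 37.9 CPM in controls. The part of the dendritic markers in the changes of the members was not tested.

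By likeness of pattern, the 3 tested genes closest to Cd247, the member with the largest change, were Cox6a2, Irf8 and Irf1. Their Pearson r of log2 CPM with Cd247 over the 8 libraries was 0.99 in each case, a description that includes the difference between groups. Irf8, a transcription factor, was at 557 and 683 CPM in RGX-104 and control libraries (log2 fold change -0.29 ± 0.03, SE), and Irf1 at 200 and 254 CPM (-0.34 ± 0.03). Cox6a2, a subunit of cytochrome c oxidase, was near the detection limit at 0.0846 and 0.560 CPM.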

How the data were processed

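Gene expression was measured by RNA sequencing (Illumina TruSeq libraries, per the labels' protocols). A single table of raw gene counts was deposited, not normalized by the authors. GRCm38 is the build in the submitters' processing notes, which also list DESeq2 1.4, R 4.1.0, STAR 2.7.5 and cutadapt 2.10. For the counter, the gene models and strandedness, the answer is not given in the sources used here. Control columns matched numbered samples, and RGX-104 columns showed only their group, so they are numbered by column. Columns not used numbered 0.

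Genes were kept by filterByExpr (minimum count 10, minimum total 15) and tested across all genes with the quasi-likelihood test of edgeR 4.0.16 in R 4.3.3 (robust fit, TMM scaling, treatment as the only term). CPM used TMM-scaled library sizes, SE came from the F statistic, and log2 CPM for likeness used a prior count of 2. Exon lengths were from GENCODE M21. Exact permutation tests used scipy 1.17.1. The test script was checked on simulated counts. Members had from 2889 to 32729 counts per library, and counting error alone gave coefficients of variation of 0.566% to 1.81%.

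The members and lists were chosen with earlier results of these data known. Named genes were all members, the called genes of each list (up to 6 by size of change), up to 2 abundant genes per list that did not pass, and Abca1. Some genes that this rule names are not reported here. Alternatives were DESeq2 1.42.0, limma-voom (limma 3.58.1), other scalings and filters, a fit that was not robust, 1 surrogate variable (sva 3.50.0) and leaving out each library. A block by column number, the ratios and the second length were added after the data were seen. B cell marker Ighm and the receptor constant segments Trac, Trbc1, Trbc2, Trdc and Tcrg-C1 had no row under those names in the count table.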

Additional observations from a re-analysis of the deposited data

Results flagged for a closer look

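A lone value stood apart from its 3 group mates in 5 of 96 groups, where chance gives about 5% of groups. Zap70 was at 205 CPM (204.72) in RGX-104 library 3, against 203.77 to 203.88 CPM in the other RGX-104 libraries. The whole group spanned less than counting error would give, so the distance is small in absolute terms. The Cd3e to Cd3d ratio was 1.33 in RGX-104 library 3, against 1.278 to 1.282 in the others, and it was still below every control library. RGX-104 library 1 was low for Lcp2 (258 CPM, against 263 to 264), for Sh2d2a (499 CPM, against 524 to 529) and for Spn (307 CPM, against 317 to 318).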

How the results depend on the processing

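The 4 members called lower were the same genes, Cd3e, Cd247, Cd8a and Cd8b1, in all 18 alternatives. The count called higher was 0 with no filter (edgeR; 3 at an unadjusted p under 0.05), 1 with 1 surrogate variable, 3 with the upper-quartile, library-size and stricter-filter settings, and 0 to 2 when 1 library was left out. No scaling moved the median of all genes by more than 0.0119 (log2). Cd3d, not called in any setting, had log2 fold changes of 0.0012 with upper-quartile scaling and 0.00012 with library size only, and -0.031 to 0.012 when 1 library was left out. Ptpn6 ranged from -0.0071 to 0.028 in the same way. Restraining genes, a list that includes Ptprc, had 5 calls with limma-voom, upper-quartile scaling, library size only or no filter. They had 2 to 5 without 1 library, against 3. Downstream genes had 5 with 1 surrogate variable and 4 to 8 without 1 library, against 8, and kinases and adaptors 2 to 6 without 1 library, against 5. All tested genes gave 840 to 1340 calls without 1 library, against 1189. The cause of these moves was not tested.

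The labels do not pair the columns. Deviations of same-numbered columns correlated at 0.22, 0.30, 0.08 and 0.43 over 5975 genes. RGX-104 columns 1, 2 and 4 correlated best with the control of their own number, and RGX-104 column 3 with control 2 (0.38). Among control columns, 1 and 4 correlated best with their own number, 2 with RGX-104 column 3 and 3 with RGX-104 column 2 (0.15). The main test used no pairing of columns. With the column number as a replicate block, calls rose to 2015 genes, 11 kinases and adaptors, 7 restraining genes and 11 downstream genes, and the members called were 7, with Cd5 added (edgeR adjusted p = 0.0243).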
